A study of Rattus norvegicus with 18 samples.

Results

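In rats given a carcinogen in their drinking water, the step between normal tongue and dysplasia was not the same in the epithelium and in the tissue beneath it. The comparison described here is the layer difference, that is the change (dysplasia minus normal) in the epithelia minus the change in the fibroblast samples, on the log2 scale. A positive value means that the epithelial change was the higher of the pair, and a negative value that it was the lower. It was computed from 12 of the 18 arrays of the series, 3 each for dysplasia epithelia, normal epithelia, dysplasia fibroblasts and normal fibroblasts. The arrays of squamous cell carcinoma were left aside. All animals were male Sprague Dawley rats. The dysplasia groups came from rats that drank water with 0.002% 4-nitroquinoline 1-oxide (4NQO), a DNA-damaging agent, and whose tongue lesions were taken between weeks 14 and 22, and the normal groups from rats that drank distilled water. Per the study's methods each sample pooled the tissue of 3 rats. The epithelial sheet was peeled off after dispase, the tissue under it was digested with collagenase, and the cells that soon stuck to the dish were collected as fibroblasts. Whether same-numbered epithelial and fibroblast samples came from the same rats is not stated. The main fit treats all 12 samples as independent. Nothing in the labels says that the samples came from separate cultures or days, and the p-values below therefore take their error from the scatter of pooled samples, which may be partly technical.

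The tongue is covered by a stratified squamous epithelium. Its basal cells divide and its upper cells stop dividing and make the cross-linked envelope proteins of the surface, while the fibroblasts below make collagen and send growth factors and chemokines to the epithelium and to immune cells. In dysplasia the epithelium loses its ordered layering, and exchange of signals such as interleukin-1 between the layers is a known part of oral carcinogenesis. A gene that moves in one layer only, or in opposite ways, can be missed where the whole mucosa is measured.

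The study states that both cell types were found pure, and shows staining for E-cadherin, pan keratin and vimentin. By RNA markers on these arrays, however, the fibroblast samples were not pure. The 18 epithelial markers averaged 12.49 ± 0.33 log2 units in dysplasia fibroblast samples and 11.81 ± 1.13 in normal fibroblast samples, against 13.18 ± 0.04 and 13.13 ± 0.06 in dysplasia and normal epithelia (SD, n = 3 each). In the normal group, fibroblast sample 3 had 10.50 where samples 1 and 2 had 12.45 and 12.47. The 16 fibroblast markers averaged 12.12 ± 0.52 in dysplasia and 12.87 ± 0.25 in normal fibroblast samples, and 7.17 ± 0.59 and 6.74 ± 0.98 in dysplasia and normal epithelia. Endothelial, erythroid, macrophage, mast cell and muscle markers were also above their epithelial levels in the fibroblast samples. The 10 endothelial markers averaged 10.29 ± 0.27 in dysplasia and 10.54 ± 0.78 in normal fibroblast samples. In dysplasia and normal epithelia they averaged 6.21 ± 0.31 and 6.03 ± 0.46. In bulk samples, fewer cells of a type and less RNA per cell cannot be told apart. The third fibroblast sample of each stage also stood apart from samples 1 and 2: over 14423 bright probe sets the median absolute difference between samples 1 and 2 was 0.0887 log2 units in dysplasia and 0.115 in normal, against 0.292 to 0.310 and 0.281 to 0.294 between either of them and sample 3. Pairs of epithelial samples differed by 0.0957 to 0.194. In the study's own clustering 1 dysplasia fibroblast sample grouped with the normal ones, and its text does not say which. As a gauge of RNA integrity, the 3′ probe set of beta-actin exceeded the 5′ one by 1.617 ± 0.054 and 1.783 ± 0.113 log2 units in dysplasia and normal epithelia and 1.782 ± 0.208 and 1.741 ± 0.259 in dysplasia and normal fibroblast samples. For GAPDH the same excess was 0.137 to 0.172 in dysplasia and 0.0173 to 0.0765 in normal epithelia, without overlap, and 0.211 to 0.296 in dysplasia and 0.281 to 0.411 in normal fibroblast samples. Its part in the layer differences was not tested.

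The layer difference was called (limma with Benjamini-Hochberg adjustment, adjusted p under 0.05) for 1540 of 31042 probe sets, or 4.96%. It was positive for 846 (2.73%) and negative for 694 (2.24%). Of the 1540, 1315 had estimates of opposite sign in the layers (753 up in the epithelia and down in the fibroblast samples, 562 the other way) and 225 of the same sign. In this fit the epithelial change alone was called for 11.3% of probe sets and the fibroblast change for 4.11%, and most of the opposite estimates were not called in both layers. Therefore 3 stricter classes were formed among the called probe sets. A probe set changed in the epithelia only where its epithelial change was called and at least 1 log2 unit in size while the 95% interval of the fibroblast change lay inside -1 to 1, and in the fibroblasts only where the reverse held. It changed in opposite ways where both changes were called with opposite signs. The epithelia only class held 326 probe sets (1.05%), of which 126 (0.406%) rose and 200 (0.644%) fell. The fibroblasts only class held 122 (0.393%), of which 52 (0.168%) rose and 70 (0.226%) fell, but with 1 probe set per gene 35 rose and 9 fell. Opposite changes were met in 64 (0.206%), with 40 (0.129%) higher and 24 (0.0773%) lower in the epithelia. The remaining 1028 called probe sets met none of the 3 definitions.

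**Figure D1:**
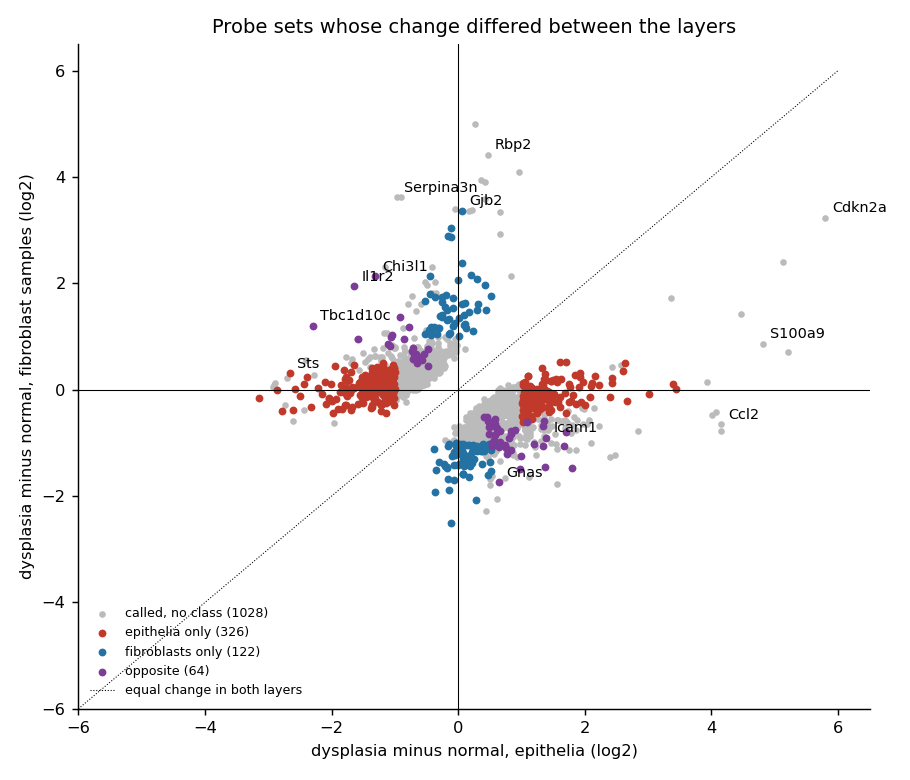
Change (dysplasia minus normal, log2) of each called probe set in the epithelia (horizontal axis) and in the fibroblast samples (vertical axis), coloured by class, with the dotted line marking equal change in both layers. The 126 and 200 probe sets of the epithelia only class lie along the horizontal axis, the 52 and 70 of the fibroblasts only class along the vertical axis, and the 64 opposite ones in the upper left and lower right parts of the plot.

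These counts depend on few samples. Leaving out dysplasia fibroblast sample 3 gave 3355 called probe sets, and leaving out dysplasia epithelia sample 3 gave 465. Apart from dysplasia epithelia sample 2 (1099) and normal fibroblast sample 3 (1904), leaving out any other single sample also moved the count by more than 1.5 times, to between 581 and 1001. Without fibroblast sample 3 of both stages 5017 were called, and with fibroblast samples 1 and 2 of each stage averaged into 1 sample 253 were called, 131 higher and 122 lower. With the arrays aligned on their spike-in controls 325 were called, of which 73.2% were higher, against 54.9% in the deposited scaling. The median layer difference over all probe sets moved to 0.23 on the aligned arrays, against -0.03. With epithelia and fibroblasts of the same stage and number taken as 1 specimen, 599 were called. In that fit 40 of the 121 named probe sets with a call lost it. The call itself was kept in all 12 fits that left out 1 sample for 418 of the 1540, and for all 64 of the opposite class. The class was kept in all 12 for 94 of the 326 in epithelia only, 26 of the 122 in fibroblasts only and 6 of the 64 opposite probe sets. The genes described below were taken by a rule on size, and among them those that kept the call in all 12 fits were preferred after the values were seen. For others, the fits that lose the call are given by their number or by the sample left out, with the highest adjusted p. The rule asked that the dysplasia and normal samples of the changing layer do not overlap, so that separation is part of the choice and not a result.

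Among the 40 probe sets that rose in the epithelia and fell in the fibroblast samples were those of Icam1, Gnas and Rnd3. Icam1, the adhesion molecule that binds leukocyte integrins, read 8.30, 8.06 and 8.50 in dysplasia epithelia, against 6.99, 6.74 and 6.96 in normal epithelia (log2 signal). It read 11.51, 11.59 and 11.93 in dysplasia fibroblast samples, against 12.45, 12.57 and 12.71 in normal fibroblast samples. The epithelial samples lay 2.62-fold higher in dysplasia and the fibroblast samples 1.87-fold lower, and the layer difference was 2.29 ± 0.22 (SE; adjusted p = 0.000919, limma). Even so, Icam1 remained far brighter in the fibroblast samples at both stages. Gnas, which encodes the stimulatory G protein alpha subunit, read 5.71, 5.56 and 5.56 in dysplasia epithelia, against 4.87, 5.03 and 5.01 in normal epithelia. Its fibroblast values were 8.87, 8.52 and 8.84 in dysplasia fibroblast samples, against 10.68, 10.48 and 10.29 in normal fibroblast samples. The layer difference of this probe set was 2.38 ± 0.20 (adjusted p = 0.000639). Its other probe sets gave 1.75, which was called, and 0.49, which was not. The uncalled one was by far the brightest Gnas probe set, with a mean of 12.73 over the 12 arrays. Its changes of 0.27 in the epithelia and -0.22 in the fibroblast samples were not called. Rnd3, which loosens the actin skeleton, read 9.57, 9.69 and 9.62 in dysplasia epithelia, against 8.60, 8.59 and 8.70 in normal epithelia. In the other layer it read 9.50, 9.24 and 9.15 in dysplasia fibroblast samples, against 10.72, 10.90 and 9.99 in normal fibroblast samples. In this probe set the dysplasia epithelia were all above the dysplasia fibroblast samples, whereas in normal tissue the epithelia were all below. Both other probe sets of Rnd3 also changed in opposite ways, with layer differences of 1.77 and 1.53 beside 2.24 ± 0.28 (adjusted p = 0.00422). In the brightest of them the order was not turned, with means of 11.13 in dysplasia epithelia and 11.19 in dysplasia fibroblast samples.

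Dapk1, a calcium and calmodulin regulated kinase of cell death, read 7.21, 7.18 and 7.26 in dysplasia epithelia, against 5.63, 5.34 and 5.59 in normal epithelia. It read 8.26, 8.22 and 8.77 in dysplasia fibroblast samples, against 9.45, 9.18 and 8.99 in normal fibroblast samples, with a layer difference of 2.49 ± 0.24 (adjusted p = 0.000919) and a second probe set at 2.41. Adamts1, a secreted protease that cleaves proteoglycans, read 7.08, 7.30 and 7.28 in dysplasia epithelia, against 6.05, 5.86 and 5.66 in normal epithelia. Its fall in the other layer was small, with 11.83, 11.92 and 12.07 in dysplasia fibroblast samples, against 12.42, 12.51 and 12.66 in normal fibroblast samples (a fall of 1.51-fold). Its layer difference was 1.95 ± 0.19 (adjusted p = 0.000919). Cd55, which protects cells from complement, had a layer difference of 2.73 ± 0.34 (adjusted p = 0.00371), and Pvr, a nectin-like adhesion receptor, one of 2.84 ± 0.48 (adjusted p = 0.0109). For Pvr the normal fibroblast values were uneven, at 10.18, 10.46 and 11.89. Arxes1 reached 2.02 ± 0.20 (adjusted p = 0.000919). Dpysl3, of the collapsin response mediator family, reached 2.21 ± 0.31 (adjusted p = 0.00587), but its other probe set gave -0.09 and was not called. In all 40 probe sets of this group the normal fibroblast mean stood above the normal epithelial mean, against 42.9% of all probe sets, and in 39 of them the gap between the layers was smaller in dysplasia than in normal tissue. With 1 sample left out, the class was kept in 11 of 12 fits for Rnd3, in 10 for Icam1 and Gnas, in 9 for Arxes1 and in 7 for Dpysl3, but in only 5 for Dapk1, 4 for Cd55 and 3 for Pvr and Adamts1. The 19 macrophage markers averaged 8.98, 8.87 and 10.63 in dysplasia fibroblast samples, against 11.40, 11.06 and 9.06 in normal fibroblast samples, so that sample 3 went against samples 1 and 2. Their part in the falls of this group was not tested.

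The 24 probe sets that fell in the epithelia and rose in the fibroblast samples included those of Il1r2, Tbc1d10c, Chi3l1 and Mxd1. Il1r2, the decoy receptor that binds interleukin-1 without signalling, read 7.94, 8.57 and 8.36 in dysplasia epithelia, against 9.81, 9.73 and 10.24 in normal epithelia. It read 11.52, 11.45 and 10.42 in dysplasia fibroblast samples, against 9.24, 9.09 and 9.24 in normal fibroblast samples. The layer that held more of it was turned: the normal epithelia were above the normal fibroblast samples, while the dysplasia epithelia were below the dysplasia fibroblast samples. The layer difference was -3.58 ± 0.39 (adjusted p = 0.00185), made of a 3.12-fold fall in the epithelia and a 3.84-fold rise in the other layer. Il1r2 is also carried by neutrophils and was on the list of neutrophil markers, whose 9 genes averaged 8.87 ± 0.21 in dysplasia and 7.50 ± 0.35 in normal fibroblast samples. Their part in the rise was not tested.

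Tbc1d10c, a GTPase-activating protein best known from lymphocytes, read 5.75, 6.02 and 6.02 in dysplasia epithelia, against 8.18, 8.44 and 8.08 in normal epithelia. It read 6.69, 6.41 and 6.11 in dysplasia fibroblast samples, against 5.28, 4.99 and 5.32 in normal fibroblast samples. Its layer difference was -3.51 ± 0.24 (adjusted p = 0.000303). Chi3l1, a secreted chitinase-like glycoprotein, read 6.91, 7.13 and 6.61 in dysplasia epithelia, against 7.98, 8.44 and 8.18 in normal epithelia. In the other layer it read 10.31, 10.17 and 10.27 in dysplasia fibroblast samples, against 8.08, 7.73 and 8.52 in normal fibroblast samples, and the layer difference was -3.45 ± 0.29 (adjusted p = 0.000639). Il1r2, Tbc1d10c and Chi3l1 were the named genes of this group that kept their class in all 12 fits with a sample left out. Mxd1, a MAX partner that opposes MYC and marks differentiating keratinocytes, read 9.67, 10.34 and 9.80 in dysplasia epithelia, against 11.52, 11.54 and 11.52 in normal epithelia. It read 9.53, 9.46 and 9.67 in dysplasia fibroblast samples, against 8.75, 8.49 and 8.55 in normal fibroblast samples. Its layer difference was -2.55 ± 0.23 (adjusted p = 0.00076), and the class was kept in 11 of 12 fits.

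Further genes of this group were Mapk13, the p38 delta kinase of stratified epithelia (-1.97 ± 0.31, adjusted p = 0.00859), Chmp4c, an ESCRT-III subunit (-1.91 ± 0.28, adjusted p = 0.00702), and Proser2 (-2.04 ± 0.34, adjusted p = 0.0101). All 3 were brighter in the epithelia at both stages. Their class, and that of Defb1, Nrg1 and Cpa1, was kept in only 1 or 2 of the 12 fits with a sample left out. Defb1, a beta-defensin, read 10.16, 10.52 and 10.68 in dysplasia epithelia, against 11.30, 11.14 and 11.49 in normal epithelia. It was dim in the other layer, at 5.77, 5.34 and 5.52 in dysplasia fibroblast samples, against 5.03, 4.72 and 4.04 in normal fibroblast samples. Nrg1, a growth factor of the EGF family, had a layer difference of -1.50 ± 0.26 (adjusted p = 0.0119), while its other called probe set was in the fibroblasts only class (-1.31, adjusted p = 0.0387, with an epithelial change of 0.09) and 6 more were not called (-0.74 to -0.10). Cpa1, a pancreatic-type carboxypeptidase, was the exception in level: it read 5.44, 5.64 and 5.52 in dysplasia epithelia, against 6.16, 6.54 and 6.24 in normal epithelia, but 11.64, 11.65 and 11.08 in dysplasia fibroblast samples, against 10.03, 10.03 and 10.80 in normal fibroblast samples. The mean epithelial marker level, as given above, was higher in dysplasia than in normal fibroblast samples, and its part in the rises of Mapk13, Chmp4c and Defb1 was not tested.

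**Figure D2:**
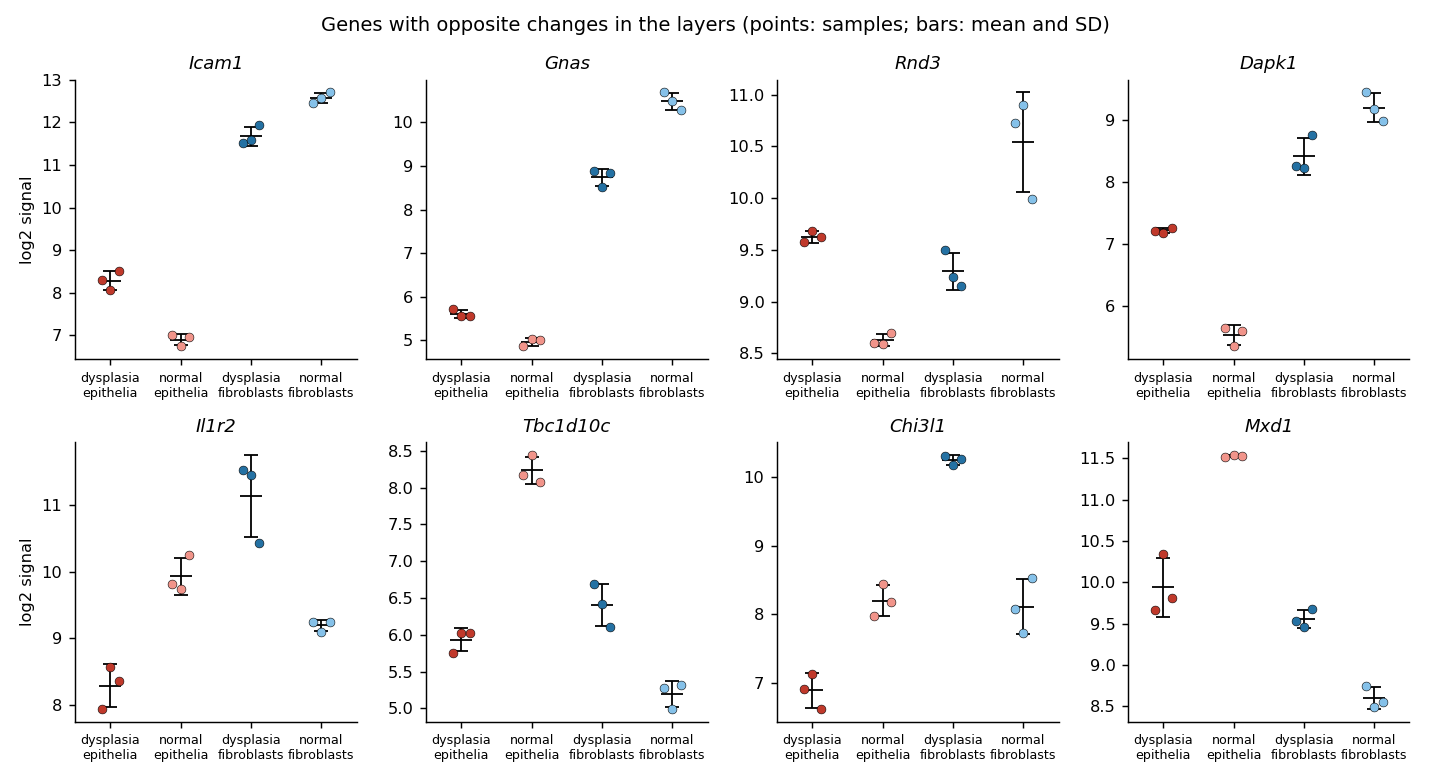
Log2 signal of 8 genes that changed in opposite ways, in dysplasia epithelia, normal epithelia, dysplasia fibroblast samples and normal fibroblast samples (points, samples; bars, mean and SD, n = 3). Icam1, Gnas, Rnd3 and Dapk1 rose in the epithelia and fell in the fibroblast samples, and Il1r2, Tbc1d10c, Chi3l1 and Mxd1 did the reverse.

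The 126 probe sets that rose in the epithelia only named 102 genes, among them interferon-responsive genes, a chemokine and detoxifying enzymes. Promoters of 5 genes whose layer difference was called are shown because they hold short motifs of the factors known to act on such genes. Each is the stretch between 190 bases before and 10 bases into the gene, 5′ to 3′ on its own strand (RefSeq, GRCr8), with motif letters in capitals. Psmb8 (chr20:4657022-4657221, minus strand) and Gbp2 (chr2:234005537-234005736, plus strand) carry the interferon-stimulated response element (ISRE, searched as GAAA, 2 free bases and GAAA), read here on the opposite strand. Cxcl1 (chr14:17479312-17479511, minus strand) carries the NF-kB motif (GGG, 2 free bases and TTTCC) at 2 places, once on each strand. Hmmr (chr10:25665206-25665405, minus strand) and Prc1 (chr1:143659291-143659490, plus strand) carry the cell cycle homology region (CHR, TTTGAA) and the CCAAT box (CCAAT, or ATTGG on the opposite strand).
Psmb8: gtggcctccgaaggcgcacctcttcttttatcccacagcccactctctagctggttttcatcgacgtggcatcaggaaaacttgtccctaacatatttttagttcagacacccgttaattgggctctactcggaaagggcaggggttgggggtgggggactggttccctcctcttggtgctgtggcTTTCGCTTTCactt
Gbp2: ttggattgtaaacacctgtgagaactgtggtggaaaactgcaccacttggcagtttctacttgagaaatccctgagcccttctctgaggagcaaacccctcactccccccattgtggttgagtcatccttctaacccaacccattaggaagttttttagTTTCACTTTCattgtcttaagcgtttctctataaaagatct
Cxcl1: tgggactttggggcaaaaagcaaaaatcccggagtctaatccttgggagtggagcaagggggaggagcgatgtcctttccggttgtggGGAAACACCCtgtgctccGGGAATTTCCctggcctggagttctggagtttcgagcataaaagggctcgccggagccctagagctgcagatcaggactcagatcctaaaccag
Hmmr: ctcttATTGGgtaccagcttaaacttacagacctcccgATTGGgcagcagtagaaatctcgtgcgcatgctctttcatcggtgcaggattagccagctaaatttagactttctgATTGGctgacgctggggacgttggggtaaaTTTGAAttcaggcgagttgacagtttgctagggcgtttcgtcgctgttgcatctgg
Prc1: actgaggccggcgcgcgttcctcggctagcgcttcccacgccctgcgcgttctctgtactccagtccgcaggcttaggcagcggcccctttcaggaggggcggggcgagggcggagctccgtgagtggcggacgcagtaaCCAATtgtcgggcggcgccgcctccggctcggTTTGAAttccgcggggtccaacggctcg
Both strands of the 300 bases around each gene start were searched. Of the 102 genes, 88 had a promoter in the table. The ISRE was present in 6 of the 88 (6.82%; Psmb8, Gbp2, Gbp7, Ifi44, Ifitm3 and Serpinb9) and in 3.77% of all 27457 promoters. The NF-kB motif was present in Cxcl1 alone (1.14%, against 1.51% of all), the CHR in 21 (23.9%, against 18.1%) and the CCAAT box in 36 (40.9%, against 37.7%). These shares are a description of letters and were not tested.

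Psmb8, a subunit of the immunoproteasome that cuts peptides for MHC class I, read 7.22, 8.38 and 7.85 in dysplasia epithelia, against 5.33, 5.50 and 5.34 in normal epithelia. It read 10.05, 10.14 and 10.57 in dysplasia fibroblast samples, against 10.38, 10.35 and 9.63 in normal fibroblast samples. The rise in the epithelia was 5.37-fold, the change in the other layer had a 95% interval of -0.48 to 0.75, and the layer difference was 2.29 ± 0.40 (adjusted p = 0.0119). Ifitm1, an interferon-induced membrane protein that hinders virus entry, read 9.56, 9.23 and 9.41 in dysplasia epithelia, against 6.88, 6.58 and 6.91 in normal epithelia. Its fibroblast values were 12.49, 12.52 and 13.09 in dysplasia fibroblast samples, against 12.39, 12.30 and 12.36 in normal fibroblast samples, and the layer difference was 2.26 ± 0.24 (adjusted p = 0.00182). Gbp2, an interferon-induced GTPase, read 6.07, 6.44 and 6.82 in dysplasia epithelia, against 4.16, 4.76 and 4.49 in normal epithelia. It read 9.35, 9.36 and 9.85 in dysplasia fibroblast samples, against 9.19, 9.29 and 9.64 in normal fibroblast samples, with a layer difference of 1.83 ± 0.32 (adjusted p = 0.0124). All 3 were brighter in the fibroblast samples at both stages, so that the epithelia came nearer to the other layer. Of 41 genes on the list of interferon response and antigen presentation, 6 had a higher layer difference and 1, Ifit1, a lower one (17.1% called, against 5.62% of 14217 genes with 1 probe set each, 2.95% higher and 2.67% lower), and the median layer difference was 0.48, against -0.03 over all genes. Tap2, Ifi44, Ifit2 and Irf1 of this list lost the call in 10, 8, 6 and 6 of the 12 fits with a sample left out. The highest adjusted p among them was 0.124, for Tap2. Macrophage markers, 19 genes, averaged 7.15 ± 0.33 in dysplasia and 6.47 ± 0.08 in normal epithelia, and their part in the rises of these interferon genes in the epithelia was not tested.

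Among secreted signals, Ccl2, the chemokine that draws monocytes, had the most positive layer difference of the named genes. It read 8.74, 8.66 and 9.74 in dysplasia epithelia, against 4.59, 4.99 and 5.12 in normal epithelia, a rise of 17.7-fold. It read 12.09, 12.16 and 12.81 in dysplasia fibroblast samples, against 12.81, 12.75 and 13.46 in normal fibroblast samples, where the change of -0.65 was not called (95% interval -1.33 to 0.03). That interval runs past -1, so Ccl2 stood outside the epithelia only class, with a layer difference of 4.80 ± 0.44 (adjusted p = 0.00076). Cxcl1, which draws neutrophils, read 8.27, 7.51 and 7.33 in dysplasia epithelia, against 6.45, 6.51 and 5.87 in normal epithelia. Its fibroblast samples were near the top of the scale, at 13.15, 13.16 and 13.35 in dysplasia fibroblast samples, against 13.59, 13.53 and 13.81 in normal fibroblast samples, and the layer difference was 1.85 ± 0.33 (adjusted p = 0.0141). Hbegf, a ligand of the EGF receptor, read 8.12, 8.43 and 8.52 in dysplasia epithelia, against 6.90, 6.84 and 6.95 in normal epithelia. It read 10.48, 10.84 and 10.46 in dysplasia fibroblast samples, against 10.46, 10.70 and 11.27 in normal fibroblast samples, with a layer difference of 1.68 ± 0.28 (adjusted p = 0.011). Of 31 chemokines, 3 were called and all were higher (9.68% called, against 5.62% of all genes). The third was Cxcl10 (2.68 ± 0.63, adjusted p = 0.0349), whose call was lost in 8 of the 12 fits with a sample left out, up to an adjusted p of 0.0939 without dysplasia epithelia sample 3.

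Further genes that rose in the epithelia only were of varied function. Slc4a7, a sodium bicarbonate cotransporter, read 9.63, 8.52 and 9.37 in dysplasia epithelia, against 6.62, 6.48 and 6.41 in normal epithelia. It read 9.18, 9.15 and 9.19 in dysplasia fibroblast samples, against 9.31, 9.17 and 9.67 in normal fibroblast samples, and the layer difference was 2.88 ± 0.34 (adjusted p = 0.00297). Its other, dimmer probe set had changes of 1.63 in the epithelia and 1.33 in the fibroblast samples, with a layer difference of 0.30 that was not called (adjusted p = 0.763). In the first probe set the dysplasia epithelia and fibroblast samples overlapped in Slc4a7 level, whereas the normal epithelia lay below every other sample. Emb, a chaperone of monocarboxylate transporters, read 8.95, 7.97 and 8.87 in dysplasia epithelia, against 5.59, 5.59 and 5.60 in normal epithelia and had a layer difference of 3.09 ± 0.43 (adjusted p = 0.00562). Ctla2a, an inhibitor of cysteine proteases, read 8.04, 7.74 and 9.23 in dysplasia epithelia, against 4.73, 5.10 and 5.0 in normal epithelia and had a layer difference of 3.28 ± 0.43 (adjusted p = 0.00461). Snx10, a sorting nexin of endosomes, reached 2.55 ± 0.38 (adjusted p = 0.008). The aldo-keto reductase Akr1c15 reached 3.43 ± 0.57 (adjusted p = 0.0103) and the flavin monooxygenase Fmo5 2.28 ± 0.42 (adjusted p = 0.0153). Gsta1, a glutathione transferase, read 10.24, 8.88 and 10.73 in dysplasia epithelia, against 6.71, 5.27 and 6.08 in normal epithelia. Its fibroblast change of 0.15 had too wide an interval for the class (-0.84 to 1.13), and the layer difference was 3.78 ± 0.64 (adjusted p = 0.011). With 1 sample left out, the epithelia only class was kept in all 12 fits for Slc4a7, Psmb8, Ifitm1, Gbp2, Hbegf, Ctla2a and Snx10, in 11 for Emb, in 8 for Cxcl1 and Fmo5 and in 6 for Akr1c15. In 122 of the 126 probe sets of the class (96.8%) the normal fibroblast mean stood above the normal epithelial mean.

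Genes of cell division leaned the same way. Of 45 genes of the cell cycle and mitosis 44 had a positive layer difference, against 47.3% of all genes, with a median of 0.98 (epithelial change 0.87, fibroblast change -0.01), and 8 were called, all higher (17.8%, against 5.62% of all genes). Hmmr, a hyaluronan receptor that also acts on the mitotic spindle, read 7.74, 7.30 and 7.50 in dysplasia epithelia, against 6.46, 5.59 and 6.19 in normal epithelia. It read 6.72, 6.37 and 5.84 in dysplasia fibroblast samples, against 6.52, 6.39 and 6.67 in normal fibroblast samples. The layer difference was 1.65 ± 0.35 (adjusted p = 0.0266), and the call was lost in 5 of 12 fits (without dysplasia epithelia sample 1 or 3, dysplasia fibroblast sample 2, normal epithelia sample 3 or normal fibroblast sample 1), up to 0.0697. Its other probe set, at 1.04, was not called (adjusted p = 0.0579). Prc1, which bundles the microtubules of the spindle midzone, reached 1.89 ± 0.37 (adjusted p = 0.0185, and 0.0528 without dysplasia epithelia sample 3). Racgap1, Kif11, E2f1, Zwint, Cks2 and Foxm1 of this list lost the call in 10, 8, 8, 7, 5 and 1 of the 12 fits. The highest adjusted p among them was 0.114, for E2f1. Of 30 genes of DNA replication and repair 4 were called, namely Mcm6, Tyms, Pola1 and Pcna, all higher (13.3%, against 5.62% of all genes), with a median of 0.75. Each of the 4 lost its call in 4 to 9 of the 12 fits, with the highest adjusted p, 0.0714 for Tyms to 0.101 for Pcna, without dysplasia epithelia sample 3. Cdkn2a, the cell cycle inhibitor locus of p16 and p19, rose in both layers but by unequal amounts. It read 10.44, 10.77 and 10.57 in dysplasia epithelia, against 4.55, 4.85 and 4.98 in normal epithelia. It read 8.97, 7.79 and 7.17 in dysplasia fibroblast samples, against 4.97, 4.84 and 4.41 in normal fibroblast samples, and the layer difference was 2.56 ± 0.50 (adjusted p = 0.019, but 0.0523 without dysplasia epithelia sample 3 and 0.0514 without dysplasia fibroblast sample 2).

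The 200 probe sets that fell in the epithelia only named 128 genes, and in only 5 of these probe sets (2.5%) was the normal fibroblast mean above the normal epithelial mean. Chac1, an enzyme that degrades glutathione and responds to endoplasmic reticulum stress, read 9.18, 10.12 and 9.62 in dysplasia epithelia, against 12.18, 11.76 and 12.14 in normal epithelia. It read 7.01, 7.17 and 7.18 in dysplasia fibroblast samples, against 6.87, 6.69 and 7.09 in normal fibroblast samples. The fall was 5.21-fold in the epithelia, and the layer difference was -2.62 ± 0.31 (adjusted p = 0.00297). Pank2, a kinase of coenzyme A synthesis, read 7.88, 7.82 and 8.17 in dysplasia epithelia, against 10.84, 9.82 and 10.93 in normal epithelia. It read 6.76, 6.56 and 6.61 in dysplasia fibroblast samples, against 6.41, 6.72 and 6.75 in normal fibroblast samples, and the layer difference was -2.59 ± 0.35 (adjusted p = 0.00562). The other 3 probe sets of Pank2 were not called and gave 0.18, 0.40 and -0.63. The one at 0.18 was the brightest Pank2 probe set (mean 9.11), and its epithelial change was 0.20. Sts, the steroid sulfatase that processes cholesterol sulfate in the cornified layer, read 7.10, 8.40 and 7.26 in dysplasia epithelia, against 10.27, 10.03 and 10.41 in normal epithelia. It read 8.48, 8.51 and 8.53 in dysplasia fibroblast samples, against 8.34, 8.12 and 8.14 in normal fibroblast samples, so that the normal epithelia were the highest group and 2 of the 3 dysplasia epithelia fell below every fibroblast sample. Its layer difference was -2.96 ± 0.38 (adjusted p = 0.00454).

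Capn8, a calpain protease, reached -2.25 ± 0.33 (adjusted p = 0.00748). S100a3, a calcium-binding protein of the hair cuticle, read 6.77, 7.29 and 7.64 in dysplasia epithelia, against 10.12, 9.10 and 10.0 in normal epithelia and reached -2.39 ± 0.39 (adjusted p = 0.00948). Fmo2, a flavin monooxygenase, read 5.66, 7.14 and 5.88 in dysplasia epithelia, against 8.90, 9.36 and 9.02 in normal epithelia with a layer difference of -2.85 ± 0.45 (adjusted p = 0.00904), and another probe set gave -2.99 ± 0.62, with its call lost in 5 of the 12 fits, up to 0.0701 without dysplasia epithelia sample 3. Idi1, an isomerase of cholesterol synthesis, had a layer difference of -1.69 ± 0.24 (adjusted p = 0.00562), and Rapgef4, an exchange factor activated by cyclic AMP, one of -2.38 ± 0.37 (adjusted p = 0.00859). Gsdma, a pore-forming gasdermin of the epidermis, read 8.90, 9.80 and 9.29 in dysplasia epithelia, against 10.86, 10.77 and 10.91 in normal epithelia, while its fibroblast change was 0.07. The layer difference was -1.59 ± 0.31 (adjusted p = 0.0194, but 0.0563 without dysplasia epithelia sample 3 and 0.0525 without normal epithelia sample 3). Zap70, a kinase of the T cell receptor, read 6.51, 6.61 and 6.66 in dysplasia epithelia, against 7.75, 7.93 and 7.95 in normal epithelia and had a layer difference of -1.48 ± 0.25 (adjusted p = 0.0115). The class was kept in all 12 fits for Chac1, Pank2, Capn8, S100a3, Fmo2 (the first probe set) and Zap70, in 11 for Idi1, in 10 for Gsdma, in 8 for Sts and in 6 for Rapgef4.

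**Figure D3:**
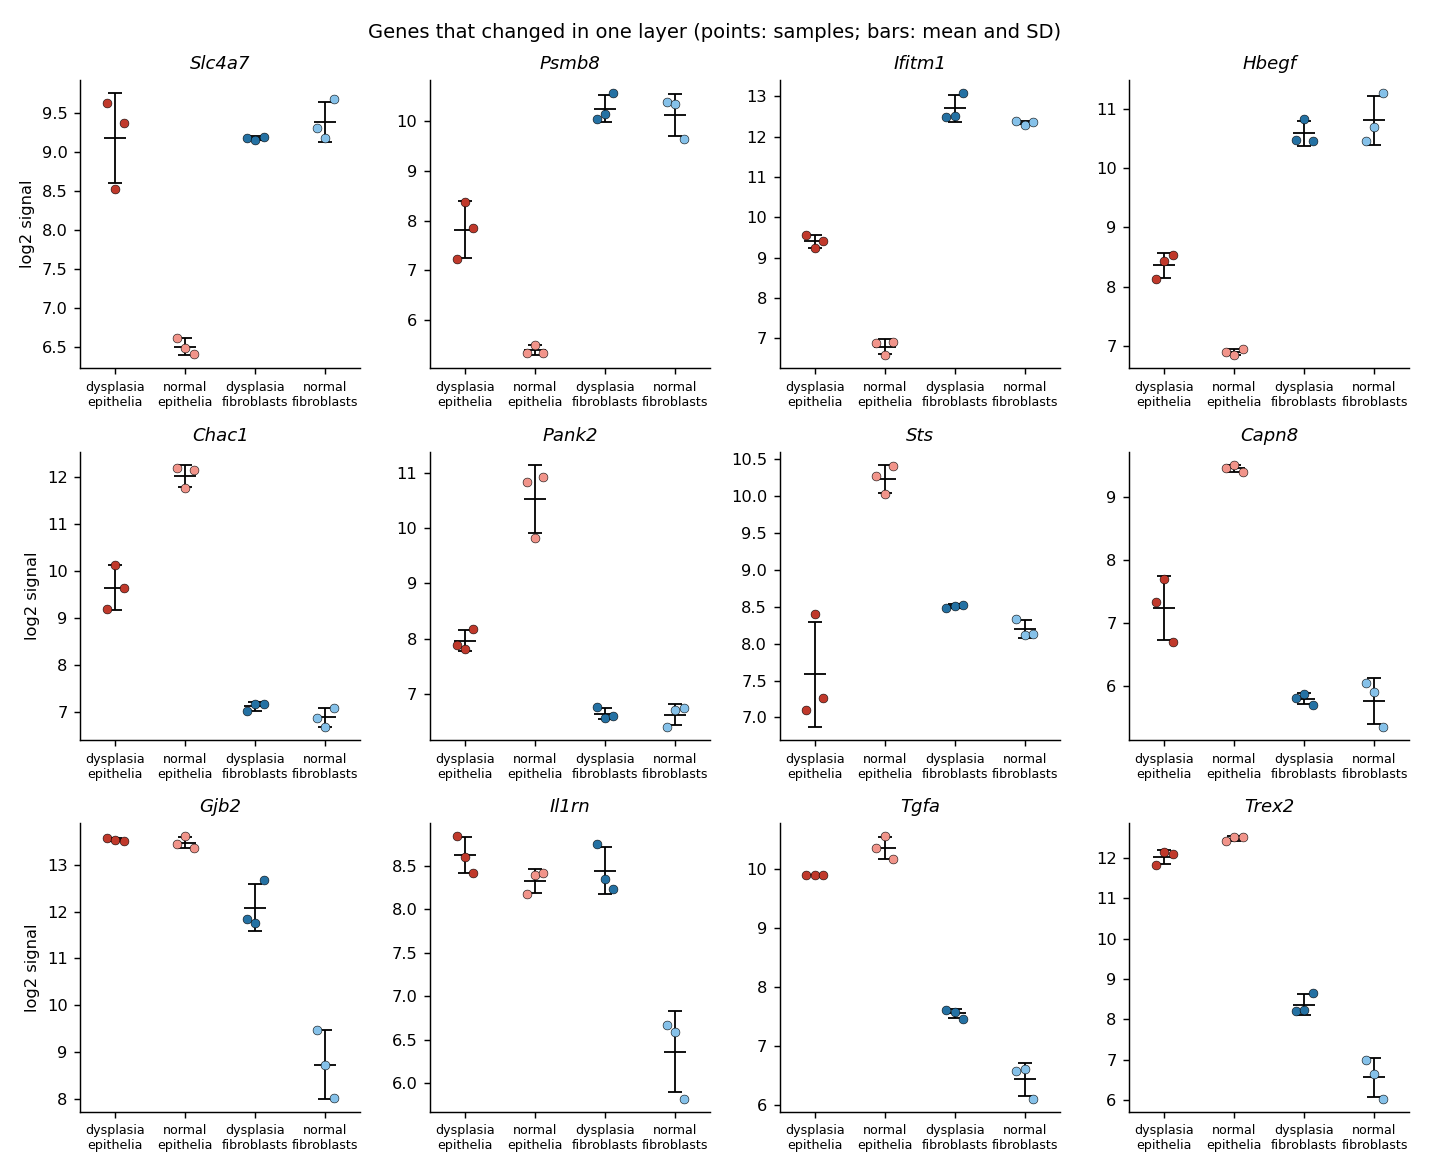
Log2 signal of 12 genes that changed in one layer, in dysplasia epithelia, normal epithelia, dysplasia fibroblast samples and normal fibroblast samples (points, samples; bars, mean and SD, n = 3). Slc4a7, Psmb8, Ifitm1 and Hbegf rose and Chac1, Pank2, Sts and Capn8 fell in the epithelia, while Gjb2, Il1rn, Tgfa and Trex2 rose in the fibroblast samples.

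The 52 probe sets that rose in the fibroblasts only named 41 genes, and several of the named ones are known from epithelium. Gjb2 (connexin 26), a gap junction protein of epithelia, read 11.85, 11.75 and 12.68 in dysplasia fibroblast samples, against 9.46, 8.72 and 8.0 in normal fibroblast samples. It read 13.58, 13.54 and 13.51 in dysplasia epithelia, against 13.46, 13.61 and 13.37 in normal epithelia, above every fibroblast sample. The rise in the fibroblast samples was 10.3-fold and the layer difference -3.30 ± 0.45 (adjusted p = 0.00562). Il1rn, the antagonist that blocks the interleukin-1 receptor, read 8.75, 8.34 and 8.23 in dysplasia fibroblast samples, against 6.66, 6.59 and 5.82 in normal fibroblast samples. It read 8.83, 8.60 and 8.42 in dysplasia epithelia, against 8.17, 8.39 and 8.41 in normal epithelia, and the layer difference was -1.79 ± 0.32 (adjusted p = 0.0128). In dysplasia the layers overlapped in Il1rn level, whereas in normal tissue the fibroblast samples were all lower than the epithelia. Tgfa, a ligand of the EGF receptor, read 7.62, 7.59 and 7.47 in dysplasia fibroblast samples, against 6.59, 6.62 and 6.11 in normal fibroblast samples, with a layer difference of -1.58 ± 0.22 (adjusted p = 0.00562). Dgat2, which makes triglycerides, reached -2.58 ± 0.28 (adjusted p = 0.0019), and Trex2, an exonuclease of keratinocytes, -2.25 ± 0.31 (adjusted p = 0.00562). For Gjb2, Tgfa, Dgat2 and Trex2 the dysplasia fibroblast samples stayed below the dysplasia epithelia, and the epithelial markers moved the same way, with 12.67, 12.69 and 12.10 in dysplasia and 12.45, 12.47 and 10.50 in normal fibroblast samples. Their part in these rises was not tested.

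Genes of the surface layers showed this most. Of 31 genes of epithelial differentiation 30 had a negative layer difference, against 52.7% of all genes, with a median of -1.77 (epithelial change -0.22, fibroblast change 1.53), and 6 were called, all lower (19.4%, against 5.62% of all genes). Sprr2d, an envelope precursor, read 10.19, 10.33 and 9.14 in dysplasia fibroblast samples, against 6.23, 5.69 and 5.45 in normal fibroblast samples. It read 12.88, 12.69 and 12.74 in dysplasia epithelia, against 11.84, 11.64 and 11.97 in normal epithelia, and the layer difference was -3.15 ± 0.40 (adjusted p = 0.00428). Sprr1b reached -3.49 ± 0.67 (adjusted p = 0.0177, and 0.0517 without dysplasia epithelia sample 3). Aloxe3 and Cnfn, also called on this list, lost the call in 7 and 9 of the 12 fits, up to 0.0915 and 0.0856. Ivl (involucrin), another envelope protein, owed its layer difference of -2.56 ± 0.53 (adjusted p = 0.0232) to a fall in the epithelia, at 5.23, 7.03 and 6.89 in dysplasia epithelia, against 8.62, 8.53 and 8.85 in normal epithelia, and its call was lost in 3 of 12 fits, up to 0.06 without normal epithelia sample 3. Rbp2, a retinol-binding protein, read 10.06, 10.09 and 9.75 in dysplasia fibroblast samples, against 6.10, 5.76 and 4.79 in normal fibroblast samples. It read 11.78, 11.97 and 11.93 in dysplasia epithelia, against 11.13, 11.74 and 11.40 in normal epithelia, and the layer difference was -3.95 ± 0.40 (adjusted p = 0.00106). Gjb6 (connexin 30) reached -3.46 ± 0.62 (adjusted p = 0.0138). None of the 18 general epithelial markers was called, and 17 of them had a negative layer difference (median -0.51).

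Other genes that rose in the fibroblast samples included Serpina3n, C3, Mcpt10 and Mb. Serpina3n, an acute-phase protease inhibitor, read 11.44, 11.38 and 10.26 in dysplasia fibroblast samples, against 7.56, 7.42 and 7.27 in normal fibroblast samples. It read 6.28, 7.14 and 6.44 in dysplasia epithelia, against 7.30, 8.34 and 7.11 in normal epithelia, and the layer difference was -4.58 ± 0.52 (adjusted p = 0.00278). C3, the central complement protein, read 9.64, 9.57 and 10.08 in dysplasia fibroblast samples, against 8.18, 7.96 and 8.25 in normal fibroblast samples, with a layer difference of -1.52 ± 0.24 (adjusted p = 0.0088). Mcpt10, a mast cell protease, read 8.44, 8.28 and 8.30 in dysplasia fibroblast samples, against 5.25, 4.44 and 4.48 in normal fibroblast samples. It was at the bottom of the scale in the other layer, with 1.90, 0.93 and 1.24 in dysplasia epithelia, against 2.25, 2.57 and 1.94 in normal epithelia, and its layer difference was -4.52 ± 0.38 (adjusted p = 0.000639). Fcer1a, the IgE receptor of mast cells, reached -2.99 ± 0.55 (adjusted p = 0.0155). All 12 mast cell markers had a negative layer difference, against 52.7% of all genes, and 2 were called (16.7%, against 5.62% of all genes). These markers averaged 8.38 ± 0.21 in dysplasia and 7.27 ± 0.68 in normal fibroblast samples. Mb (myoglobin) read 9.89, 10.01 and 9.51 in dysplasia fibroblast samples, against 7.92, 8.36 and 8.13 in normal fibroblast samples and had a layer difference of -2.19 ± 0.30 (adjusted p = 0.00562), and the 23 muscle markers averaged 8.04 ± 0.22 in dysplasia and 7.20 ± 0.12 in normal fibroblast samples. Of the muscle markers 21 had a negative layer difference, and 3 were called, all lower (13%, against 5.62% of all genes). Besides Mb these were Myh7 and Atp2a1, whose calls were lost in 1 and 3 of the 12 fits, up to 0.052 and 0.0556. Myh7 changed more in the epithelia (-1.51) than in the fibroblast samples (0.69). Cd3e, of the T cell receptor, reached -1.20 ± 0.25 (adjusted p = 0.0233, but 0.0554 without dysplasia fibroblast sample 1 and 0.059 without normal epithelia sample 3), and its other probe set, at -0.84, was not called. Of 15 T and NK cell markers 11 had a negative layer difference, and 3 were called, all lower (20%, against 5.62% of all genes). Besides Cd3e these were Zap70, which fell in the epithelia only, and Cd2, whose call was lost in 7 of the 12 fits, up to 0.0759. The fibroblasts only class was kept in all 12 fits for Gjb2, Il1rn and C3, in 11 for Tgfa, in 10 for Dgat2 and Cd3e and in 7 for Trex2, but in only 4 for Mb and 3 for Fcer1a. The part of these cell types in the rises was not tested.

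The neutrophil genes did not move as one. S100a9, a calcium-binding protein abundant in neutrophils and induced in stressed keratinocytes, read 11.06, 10.18 and 10.34 in dysplasia epithelia, against 5.39, 6.45 and 5.30 in normal epithelia, a rise of 28.2-fold. It read 12.92, 12.96 and 13.23 in dysplasia fibroblast samples, against 12.05, 11.89 and 12.57 in normal fibroblast samples, and the layer difference was 3.95 ± 0.45 (adjusted p = 0.0026). Csf3r, the receptor of granulocyte colony-stimulating factor, went the other way, at -2.39 ± 0.41 (adjusted p = 0.0119), as did Il1r2. Of 9 neutrophil markers 1 was higher and 3 were lower (44.4%, against 5.62% of all genes), the last being Cxcr2, a chemokine receptor, whose call was lost in 9 of the 12 fits, up to 0.105 without dysplasia epithelia sample 3. Of 18 S100 proteins and antimicrobial peptides, 2 were higher (S100a9 and S100a4) and 5 lower (S100a1, S100a3, S100g, Slpi and Defb1), or 38.9% against 5.62% of all genes. Of these 7 the call was lost for S100a4 in 3 of the 12 fits (up to 0.0569) and for Slpi in 9 (up to 0.0977).

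The 70 probe sets that fell in the fibroblasts only named 19 genes, since most carried no single gene name. Mcub, a subunit that dampens mitochondrial calcium uptake, read 7.20, 7.30 and 7.95 in dysplasia fibroblast samples, against 8.85, 8.62 and 9.07 in normal fibroblast samples. It read 5.82, 5.72 and 5.60 in dysplasia epithelia, against 5.05, 5.28 and 5.28 in normal epithelia, and the layer difference was 1.88 ± 0.27 (adjusted p = 0.00691). Heph, a copper-dependent iron oxidase, read 7.57, 7.71 and 8.21 in dysplasia fibroblast samples, against 8.95, 8.85 and 8.80 in normal fibroblast samples, with a layer difference of 1.62 ± 0.24 (adjusted p = 0.0081). The class was kept in 7 of the 12 fits for Mcub and in 3 for Heph. Of 45 extracellular matrix genes 43 had a positive layer difference, against 47.3% of all genes, with a median of 0.95 (epithelial change 0.17, fibroblast change -0.76), and 6 were called, all higher (13.3%, against 5.62% of all genes). Col5a2, a fibrillar collagen chain, read 10.18, 9.59 and 9.60 in dysplasia epithelia, against 8.19, 7.18 and 8.40 in normal epithelia. It read 11.83, 11.80 and 12.74 in dysplasia fibroblast samples, against 12.69, 12.51 and 13.47 in normal fibroblast samples, and the layer difference was 2.63 ± 0.52 (adjusted p = 0.0197, and 0.0542 without dysplasia fibroblast sample 2). The other called matrix genes were less stable. Col12a1 and P4ha1 lost the call in 11 of the 12 fits, up to 0.111 and 0.117. Loxl2 and Plod2 lost it in 9, up to 0.108 and 0.0881, and Postn is given below. All 19 macrophage markers had a positive layer difference (median 1.84), and 2 were called (10.5%). These were Lyz2, whose call was lost in 8 of the 12 fits, up to 0.099 without dysplasia epithelia sample 3, and Tyrobp, lost in 10, up to 0.114 without dysplasia fibroblast sample 2. As given above, the level of these markers in fibroblast sample 3 of each stage went against samples 1 and 2. Among 16 fibroblast markers 15 were positive, and 2 were called (12.5%), namely Postn and Thy1. Their calls were lost in 7 and 11 of the 12 fits, up to 0.0799 and 0.0892 without dysplasia fibroblast sample 2.

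**Figure D4:**
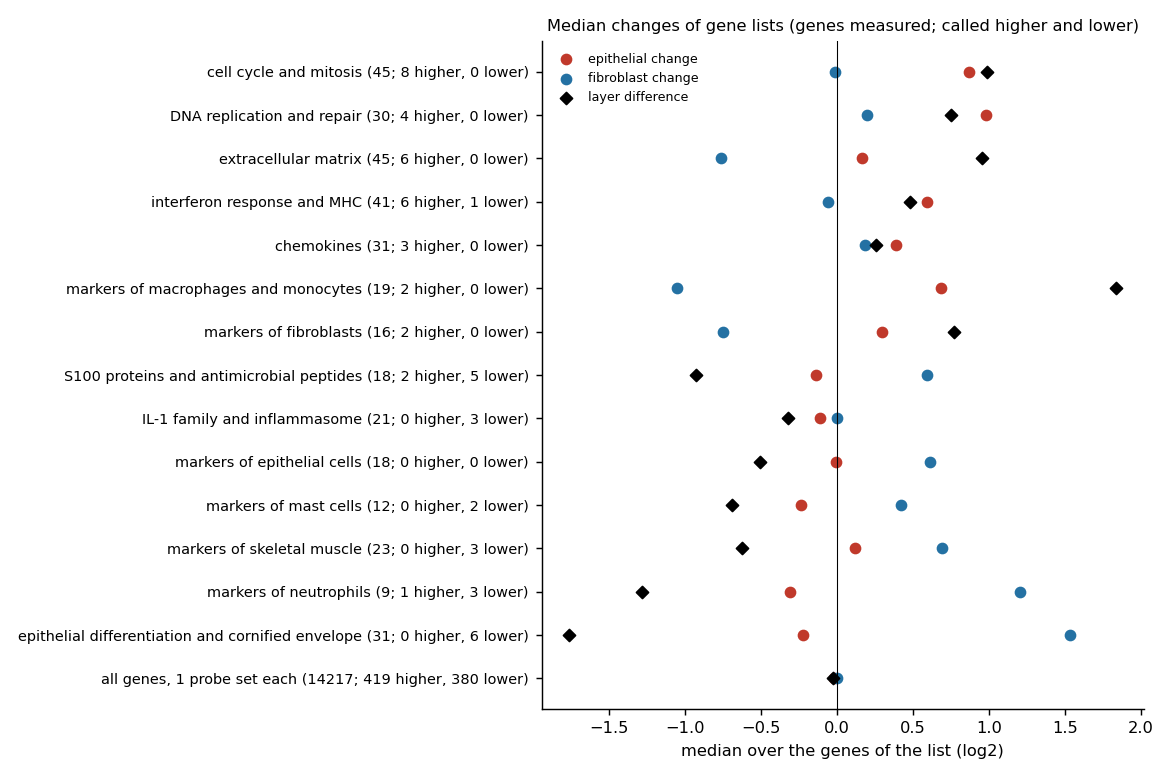
Median over the genes of each list (log2) of the epithelial change, the fibroblast change and the layer difference, with the number of genes measured and called in brackets. The list of epithelial differentiation (median layer difference -1.77) and that of macrophage markers (1.84) lie farthest from the median of all genes (-0.03) on either side.

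Of 24 genes that the study names, 3 were higher and 3 lower (25% called, against 5.62% of all genes). The study named them in networks and RT-PCR checks that drew partly on these samples and partly on its other arrays. Their count is therefore not independent evidence. Besides Ccl2, Icam1, Il1r2 and Gsdma these were Ptgs2 (cyclooxygenase 2), at 2.49 ± 0.61 (adjusted p = 0.0425), and Anxa9, at -1.34 ± 0.29 (adjusted p = 0.0267), whose calls were lost in 9 and 6 of the 12 fits, up to 0.105 without dysplasia epithelia sample 3 and 0.0663 without normal epithelia sample 3. Il1b, the interleukin-1 beta gene, had a layer difference of 1.25 ± 0.78 with a 95% interval of -0.47 to 2.97 (adjusted p = 0.379). Cxcl2 gave 2.27 ± 0.82 (adjusted p = 0.134, but 0.0273 without dysplasia epithelia sample 2) and Tgfb1 0.71 ± 0.27 (adjusted p = 0.146, but 0.02 without dysplasia fibroblast sample 3). The probe sets counted for Tgfb2 and Glrx were not called, but another probe set of each was. That of Tgfb2 fell in the epithelia only (-1.36 ± 0.27, adjusted p = 0.0199), and that of Glrx gave -1.32 ± 0.29 (adjusted p = 0.0286). The counted Tgfb2 probe set pointed the other way, and was called at 1.48 without dysplasia fibroblast sample 3 (adjusted p = 0.00729). The probe sets of Tgfb2 thus disagreed in direction. Of the 21 genes of the interleukin-1 family and inflammasome 3 were called, all lower: Il1r2, Il1rn and Il1a (14.3%, against 5.62% of all genes). Il1a read 9.52, 9.45 and 10.57 in dysplasia fibroblast samples, against 8.65, 8.34 and 7.25 in normal fibroblast samples. It read 8.18, 8.11 and 7.82 in dysplasia epithelia, against 9.01, 8.42 and 8.89 in normal epithelia, with a layer difference of -2.50 ± 0.51 (adjusted p = 0.0229, lost in 3 of 12 fits, up to 0.0682 without dysplasia epithelia sample 3).

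The called probe sets shared a pattern in level that the rule did not name. The gap between the layers, epithelia against fibroblast samples, was smaller in dysplasia than in normal tissue for 1329 of the 1540 (86.3%), with a median absolute gap of 0.969 log2 units in dysplasia and 1.933 in normal tissue. Over all 31042 probe sets it was smaller for 68.7%, with medians of 0.467 and 0.614. The order of the layers was turned in 318 of the 1540. The class that rose in the fibroblasts only was the exception, with a smaller gap in 23 of 52 probe sets (44.2%). The gap and the layer difference come from the same arrays, so these shares are a description and not a test.

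**Figure D5:**
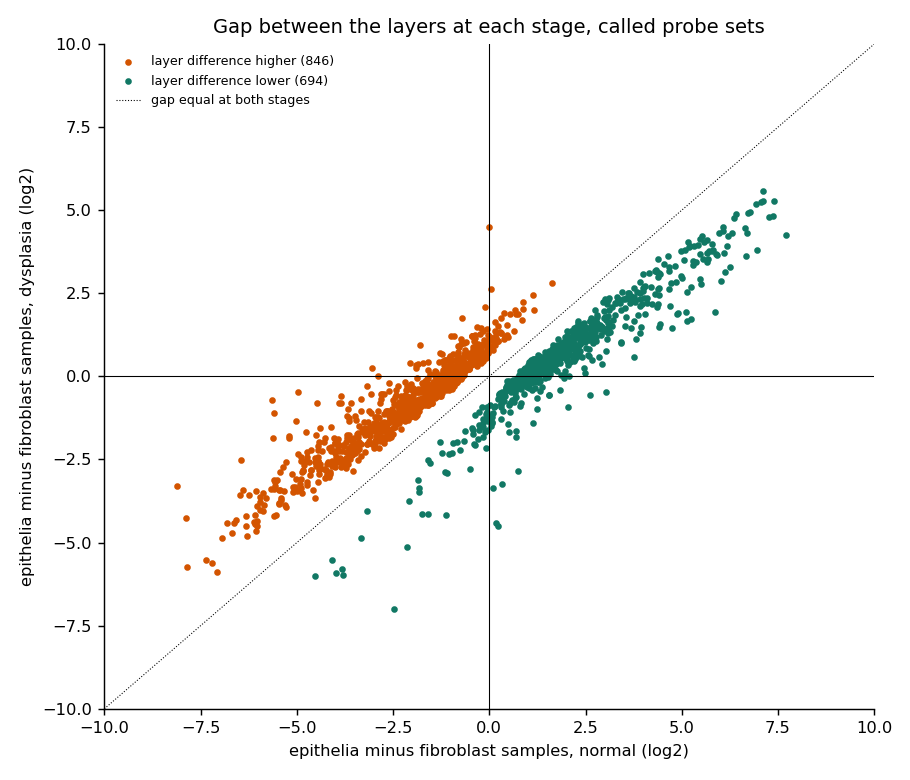
Gap between the layers (epithelia minus fibroblast samples, log2) of the 1540 called probe sets in normal tissue (horizontal axis) and in dysplasia (vertical axis), with a dotted line where the gap is equal at both stages. For 1329 of the 1540 the gap in dysplasia is the smaller one, so that most points lie nearer to zero on the vertical axis than on the horizontal axis.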

How the data were processed

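Total RNA was hybridised to Affymetrix rat genome arrays. The deposited values are linear intensities, 1 per probe set, already summarised and normalised by the authors. Affymetrix Expression Console and RMA, which usually gives log2 values, are named in the submitters' processing notes (versions not given in the sources used here). Values were taken as linear because they run from 1, the lowest on every array, to a log2 of 14.24 to 14.39, and how that lowest value was set is not given, which bears on dim signals. No scanner files were used. Signals were taken to log2. After removal of 57 control probe sets from the table of 31099, tests ran on 31042. GEO's platform annotation gave 20826 of these 1 gene, 436 several and 9780 none, and 14217 genes were named. With arrays, the number of samples limits the precision.

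A mean for each of 4 groups was fitted with limma 3.58.1 in R 4.3.3 (lmFit and eBayes), and p-values were adjusted (Benjamini-Hochberg) over all probe sets. With 3 samples on each side, exact permutation p-values stop at 0.1, so none were used. Lists were counted with 1 probe set per gene, the one of highest mean. Named genes were the 8 of largest layer difference per class and direction whose dysplasia and normal samples did not overlap in the changing layer, up to 4 called members per list, and the genes the study names. The members and the 42 lists were chosen with earlier results of these data known. On simulated data with 100 probe sets shifted by 2 log2 units in 1 layer 79 were called, and 26 of 100 shifted by 1, with 3 false calls among 31042 probe sets. The simulated errors were independent between samples, with 1 spread per probe set. In the real data fibroblast samples 1 and 2 lay close together and sample 3 apart. The simulated counts therefore do not gauge the false calls in these data. Alternatives changed the scaling, the treatment of dim probe sets, the moderation, the samples and the blocks.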

Additional observations from a re-analysis of the deposited data

Results flagged for a closer look

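The change between normal tissue and dysplasia differed between the layers by the interaction test of the fit for 1540 probe sets, 846 of them with the epithelial change higher and 694 with it lower. The genes named for opposite changes were each picked out by the same test of the difference (limma, adjusted p under 0.05). On the log2 scale, the epithelial change exceeded the fibroblast change by 2.84 for Pvr, 2.73 for Cd55, 2.49 for Dapk1, 2.38 for Gnas, 2.29 for Icam1, 2.24 for Rnd3, 2.21 for Dpysl3 and 2.02 for Arxes1. The layer difference was -3.58 for Il1r2, -3.51 for Tbc1d10c, -3.45 for Chi3l1, -2.55 for Mxd1, -2.04 for Proser2, -1.97 for Mapk13, -1.95 for Cpa1 and -1.91 for Chmp4c.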

How the results depend on the processing

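None of the 121 named probe sets with a call turned direction under a setting that was run, while the estimates of Mmp3, Mmp9 and Mmp13, not called, changed sign under some. Of the 121, 59 kept the call in all 12 fits that left out 1 sample and 38 in every setting. A call was kept by 70 on arrays aligned on spike-in controls, by 120 without fibroblast sample 3 of both stages and by 48 with fibroblast samples 1 and 2 averaged. The last 2 settings were chosen after seeing the data.

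For the layer difference (1540 called), 972 were called without moderation, 943 with 1 probe set per gene, 325 with spike-in alignment (73.2% higher, against 54.9%), 5017 without fibroblast sample 3 of both stages and 253 with samples 1 and 2 averaged. Leaving out 1 sample gave 465 to 3355. For epithelia only (326), the counts were 171 without moderation, 198 with 1 probe set per gene, 62 with spike-in alignment (64.5% higher, against 38.7%) and 78 with averaging, and 143 to 348 with 1 sample left out. For fibroblasts only (122), they were 58 with all 18 arrays, 59 without moderation, 44 with 1 probe set per gene (35 higher and 9 lower, against 52 and 70), 36 with spike-in alignment, 824 without sample 3 of both stages and 23 with averaging (65.2% higher, against 42.6%), and 48 to 559 with 1 sample left out. For opposite changes (64), they were 117 with dim probe sets left out, 33 with weights per group, 40 with 1 probe set per gene, 10 with spike-in alignment (90% higher, against 62.5%), 631 without sample 3 of both stages and 5 with averaging, and 15 to 325 with 1 sample left out. With 1 probe set per gene fewer probe sets are tested, and the averaged fit holds fewer samples. The cause of the other moves was not tested.

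Deviations of same-numbered samples correlated between -0.113 and 0.210, and those of differently numbered samples between -0.271 and 0.242. With 3 samples per group, these values cannot show whether same-numbered samples of both layers came from the same rats. With the number as a replicate block 1412 probe sets were called, 304 in epithelia only, 120 in fibroblasts only and 64 opposite. With epithelia and fibroblasts of the same stage and number as 1 specimen (replicate block of stage and number) 599 were called, and 40 of the 121 named probe sets lost the call, among them Cxcl1 (adjusted p = 0.0512), Defb1 (0.056), Cdkn2a (0.0517), Il1a (0.0566) and Gsdma (0.0505). That fit gives no change within a layer, so it gave no class counts.

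Signals that are dim in 1 layer, such as Mcpt10 in the epithelia, lie where the array separates levels poorly, and their fold changes are the least certain.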
